A study of Mus musculus with 2 samples.

Results

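The 10 genes described here belong to the mouse MHC class II presentation pathway. They are H2-Aa, H2-Ab1, H2-Eb1, Cd74, Ciita, H2-DMa, H2-DMb1, H2-DMb2, H2-Oa and H2-Ob, taken by name from the 15623 genes listed in 1 or both gene tables. No cut on their measured values was applied, but earlier results of these data were known when they were chosen. The tables come from a pair of RNA-seq libraries of peritoneal macrophages from wild type C57BL/6 mice aged 6 to 8 weeks. The cells were drawn out with 4% thioglycolate, collected after 4 to 5 days, left to adhere for 4 h and then starved in medium with 0.5% FBS. One library was left nontreated (NT) and the other was stimulated with 20 ng/mL mouse IL-4 for 6 h. Neither group had a second library, and the number of mice behind each was not given in the sources used here. Both groups therefore share the inflammatory recruitment, the adherence step and the starvation. IL-4 is a type 2 cytokine that signals through STAT6 and drives the M2, or alternatively activated, state of macrophages, and the comparison asks which genes IL-4 changes in these cells.

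Class II molecules are pairs of an alpha and a beta chain that carry peptides from endosomes to the cell surface, where CD4+ T cells read them. The new pair is held by the invariant chain Cd74, which steers it to endosomes and blocks its groove until proteases cut it down to the fragment CLIP. H2-M then exchanges CLIP for other peptides, H2-O restrains H2-M, and Ciita is the transactivator that is recruited to class II promoters by factors bound at the conserved S, X and Y boxes. Macrophages hold low class II until a signal such as interferon-gamma induces Ciita, and IL-4 is known as an inducer of class II in B cells and, in some settings, in macrophages.

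One field of the labels names peritoneal macrophages and another gives bone marrow as the tissue. All 10 macrophage markers fixed for the check were listed in both libraries, with 2 called higher in IL-4, among them Csf1r, and 1 lower (Cd14, 1219 expected counts in NT and 591 in IL-4). Cd68 had 44626 counts in NT and 48679 in IL-4, Adgre1 2470 and 3377, and Msr1 860 and 548. All 10 markers of resident peritoneal macrophages were listed as well, with 2 called higher and 0 lower. Those called were Selp, with 25 counts in NT and 72 in IL-4, and Alox15, with 4 and 29. Gata6 had 54 counts in NT and 77 in IL-4, Timd4 12 and 10, Prg4 255 and 253, and Saa3 3918 and 3885. By the call rule given below, 4.07% of all genes were higher and 6.28% lower. These values do not by themselves separate the tissues named by the labels. The libraries summed to 11035641 expected counts in NT and 11250099 in IL-4. A floor of 3 counts was thus 0.272 CPM (counts scaled to the library total) in NT and 0.267 in IL-4. Smaller counts are shown, but no fold is given in the text where both libraries are at or under this floor. As a check of the labels, Arg1, a gene that IL-4 induces in mouse macrophages, had 30 counts in NT and 7711 in IL-4 (log2 ratio 7.95). All 10 class II genes were listed in NT and 9 in IL-4, where H2-Oa was missing.

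Class II promoters are known for X and Y boxes, and the promoter stretches shown here were cut around letters like those of the boxes, so that the genes can be compared by what they share. RefSeq promoters of GRCm38.p6, each of 300 bases from 250 before to 50 after a start site, were held for 7 of the 10 genes in 8 windows. For H2-DMa and H2-DMb2 the windows lie inside the spans given for these genes below, so their start sites are not the outer ends of the spans. H2-Ab1, Ciita and Cd74 had no entry. Capitals mark GNAAC, taken here as a core of the X box, and ATTGG, the CCAAT sequence of the Y box read on the gene's strand. This pair of patterns was chosen after the sequences had been read. The stretches are given 5′ to 3′ on the gene's strand, at chr17:34287857-34287914 on the minus strand for H2-Aa, chr17:34305766-34305822 for H2-Eb1, chr17:34153087-34153144 for H2-DMb1, chr17:34145116-34145173 for H2-DMb2, chr17:34238808-34238862 for H2-Ob and chr17:34092293-34092350 for H2-Oa.
H2-Aa: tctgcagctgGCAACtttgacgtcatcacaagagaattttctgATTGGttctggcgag
H2-Eb1: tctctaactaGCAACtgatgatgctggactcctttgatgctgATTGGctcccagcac
H2-DMb1: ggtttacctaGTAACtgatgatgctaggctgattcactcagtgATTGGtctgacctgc
H2-DMb2: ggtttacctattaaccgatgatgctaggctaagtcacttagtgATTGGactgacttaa
H2-Ob: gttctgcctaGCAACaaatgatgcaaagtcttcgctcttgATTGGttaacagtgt
H2-Oa: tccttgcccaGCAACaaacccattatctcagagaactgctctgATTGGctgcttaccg

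GNAAC followed on the gene's strand by ATTGG at a distance of 15 to 35 bases was found in 5 of the 8 windows, those of H2-Aa, H2-DMb1, H2-Eb1, H2-Oa and H2-Ob. The same arrangement was present in 1.74% of 32851 mouse promoters of that length. The printed stretches were cut around ATTGG, which began at base -61 from the window's start site in H2-DMb1 and at base -90 in H2-DMb2. The start site used for H2-DMb2 lies within the gene's span of chr17:34143229-34151553. H2-DMb2 lacked GNAAC at that spacing before ATTGG. Searched on both strands, ATTGG alone was in 7 of the 8 windows and in 37.4% of all promoters. These are matches of letters in short windows, and binding was not measured.

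Per length, the class II genes ranged from abundant to barely detected. Cd74 stood first with 202 FPKM in NT and 247 in IL-4. The chains of the classical molecules came next, with 36.8 FPKM in NT and 38.3 in IL-4 for H2-Aa, 36.2 and 48.2 for H2-Ab1, and 24.2 and 21.3 for H2-Eb1. H2-DMb1, the beta chain of H2-M, was at 20.3 FPKM in NT and 27.9 in IL-4. Its partner H2-DMa was lower, at 5.60 FPKM in NT and 9.42 in IL-4, and H2-DMb2, the second beta chain gene, was at 1.96 and 5.22. Ciita, which these genes require, was itself scarce, at 0.34 FPKM in NT and 0.48 in IL-4. H2-O was at the edge of detection, with H2-Oa at 0.26 FPKM in NT and not listed in IL-4, and H2-Ob at 0.24 and 0.07.

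In the NT library H2-Aa and H2-Ab1 did not differ per length beyond counting error, with a ratio of 1.01 (95% interval 0.889 to 1.16). Neither could Ciita, H2-Oa and H2-Ob be placed in order. The intervals of the other neighbours in the order excluded a ratio of 1. In the IL-4 library H2-Ab1 stood above H2-Aa, and H2-DMb1 stood above H2-Eb1, the reverse of the order of the latter pair in NT. Cd74 exceeded the mean of the 3 classical chains 6.23-fold in NT and 6.86-fold in IL-4. All 10 genes together stood at 414 CPM in NT (4574 counts) and 499.8 CPM in IL-4 (5622 counts). Their log2 ratio was 0.27, with a 95% interval of 0.21 to 0.33. The length trend described below was not subtracted from it. In RNA from a whole culture, a change in the number of cells with class II and a change in class II RNA per cell cannot be told apart.

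**Figure D1:**
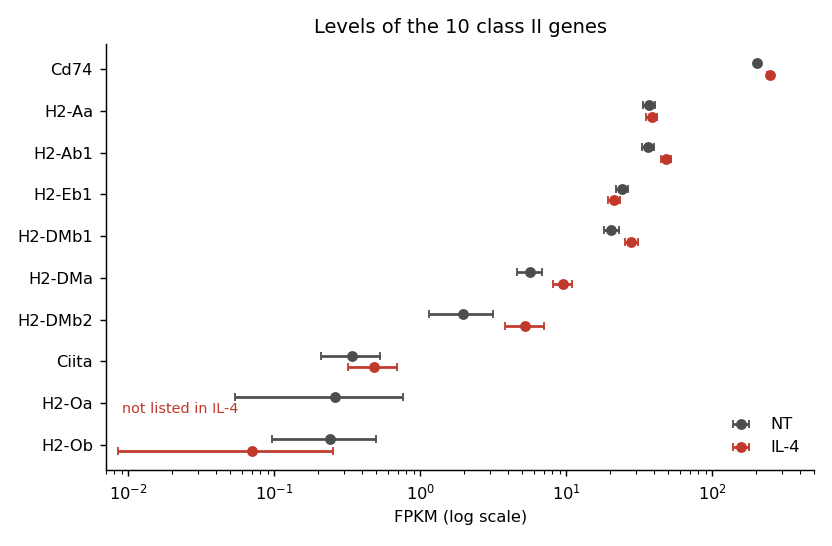
FPKM of each class II gene on a log axis in the NT library (grey) and the IL-4 library (red), with 95% Poisson intervals that cover counting error only. Cd74 stood at 202 and 247 FPKM, the classical chains between 21.3 and 48.2, and Ciita, H2-Oa and H2-Ob below 0.5, with H2-Oa not listed in IL-4.

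Genes were compared by the log2 ratio of their CPM, IL-4 to NT, with 0.5 count added. To be called, a gene needed a ratio of 0.75 or more in size and, in an exact two-sided binomial test of the reads, p up to 0.05 and a Benjamini-Hochberg (BH) adjusted value up to 0.5. With 1 library per group the test compares these libraries and not the conditions, and the variation between mice could not be estimated. All intervals given for ratios are 95% exact intervals and cover counting error only. By this rule 1 of the 10 class II genes was called higher in IL-4 (H2-DMb2) and 0 were called lower. Of all 15593 genes tested 4.07% were called higher, 6.28% lower and 10.4% either way, so that a single call among 10 genes is near the background. The number called higher was 2 with TMM scaling (4.3% of all genes), 2 with median-of-ratios scaling (4.22%) and 2 with a 1.5-fold rule (4.84%), and 0 with an assumed coefficient of variation of 0.4 in edgeR (0.417%). The median log2 ratio of the 10 was 0.35, beside -0.03 for all genes tested. With the length trend described below subtracted, it was 0.16, beside -0.04 for all genes tested. The ratio was above 0 for 7 of the 10, and the counting interval lay wholly above 0 for 5 of them (H2-Ab1, Cd74, H2-DMa, H2-DMb1 and H2-DMb2) and wholly below 0 for 0. For H2-Aa, H2-Ab1, H2-Eb1, Cd74 and H2-DMb1 the interval lay wholly between -0.75 and 0.75.

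**Figure D2:**
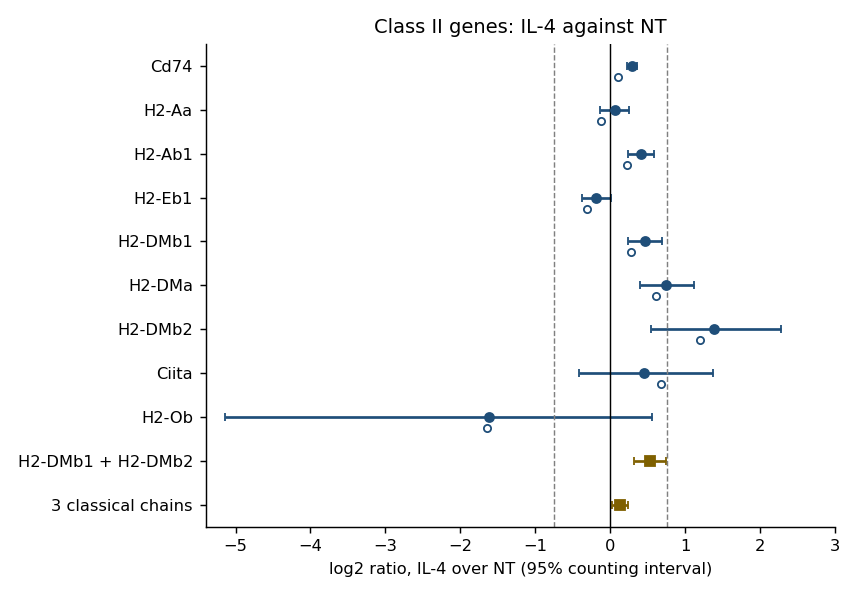
Log2 ratio of IL-4 over NT for the class II genes (filled points) and for summed groups of them (squares), with 95% counting intervals, the ratio after subtraction of the length trend as open circles and the call threshold of 0.75 as dashed lines. H2-Oa, at or under 3 counts in both libraries, is left out. H2-DMb2 at 1.39 was past the threshold and H2-DMa at 0.75 was just short of it before rounding.

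Longer and shorter genes did not have the same typical ratio in these libraries, so a length trend, which is the median ratio of genes of like length, is given beside the ratios where it matters. H2-Aa (chr17:34282744-34287823, minus strand), which encodes the alpha chain of the classical molecule I-A, had 433 expected counts in NT and 460 in IL-4. Its log2 ratio was 0.06 (-0.13 to 0.25, p = 0.560 in the exact test). The libraries thus did not differ at this gene beyond counting error. H2-Ab1 (chr17:34263227-34269418, plus strand), the beta chain that pairs with it, had 471 counts in NT and 639 in IL-4, a log2 ratio of 0.41 (0.24 to 0.59, exact test BH-adjusted p = 1.64e-05). This was more than counting error but below the 0.75 required for a call. H2-Eb1 (chr17:34305867-34316674, plus strand), the beta chain of I-E, had 444 counts in NT and 398 in IL-4, a log2 ratio of -0.19 (-0.38 to 0.01, exact p = 0.0672).

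The partner chain of H2-Eb1 is encoded by H2-Ea, which is disabled by a promoter deletion in the b haplotype of C57BL/6 mice, and H2-Ea was listed in neither library. Of 3 further class II genes looked for and present in the gene table used for names (H2-Eb2, H2-Pa and H2-Pb), H2-Eb2 alone was listed, at 11.0 expected counts in NT and 7.67 in IL-4. Summed, the 3 classical chains had 1348 counts in NT and 1497 in IL-4, a log2 ratio of 0.12 (0.02 to 0.23). The length trend at the lengths of these 3 genes was positive (0.18 for H2-Aa), and after its subtraction the ratio was -0.13 for H2-Aa (-0.32 to 0.07), 0.23 for H2-Ab1 (0.05 to 0.40) and -0.31 for H2-Eb1 (-0.51 to -0.11). The direction for H2-Aa therefore depended on this step, and those for H2-Ab1 and H2-Eb1 did not.

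Ratios between genes within a library do not depend on how the libraries are scaled. H2-Ab1 over H2-Eb1 was 1.498 in FPKM in NT and 2.27 in IL-4, a log2 change of 0.60 (0.33 to 0.86). H2-Aa over H2-Ab1 was 1.01 in NT and 0.795 in IL-4, a change of -0.35 (-0.61 to -0.09). The chains of the classical molecules thus changed unequally, and within I-A the beta chain gained on the alpha chain. Among the 15 pairs that 6 of the genes form (H2-Aa, H2-Ab1, H2-Eb1, Cd74, H2-DMa and H2-DMb1, each with at least 50 counts), the interval of the change excluded 0 for 9. H2-Eb1 lost ground to each of the others except H2-Aa, with H2-Eb1 over H2-DMa at 4.32 in NT and 2.26 in IL-4, a log2 change of -0.94 (-1.36 to -0.52). H2-Eb1 over H2-DMb1 was 1.19 in NT and 0.764 in IL-4. The change was not separable from 0 for H2-DMa over H2-DMb1, at 0.29 (-0.14 to 0.72), nor for H2-Ab1 over Cd74, at 0.12 (-0.06 to 0.31).

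Cd74 (chromosome 18, bases 60803849 to 60812652, plus strand) was counted most deeply of the 10, at 2793 expected counts in NT and 3477 in IL-4. Its log2 ratio was 0.29 (0.22 to 0.36, exact test BH-adjusted p = 4.61e-14). The interval is narrow because of the depth, and it places the difference above 0 and below the call threshold. Less the length trend the ratio was 0.10 (0.03 to 0.17). Together with the 3 classical chains Cd74 had 4141 counts in NT and 4974 in IL-4, a log2 ratio of 0.24 (0.18 to 0.30). Less the length trend this sum was at 0.06 (exact p = 0.0686), no longer beyond counting error.

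Ciita (chr16:10480014-10531064, plus strand) had 20 expected counts in NT and 28 in IL-4, a log2 ratio of 0.45 (-0.42 to 1.36, exact p = 0.345). At this depth neither no difference nor a ratio past the threshold in the higher direction could be set aside. The Ciita gene is read from several promoters, and the length the authors' table gives for it, weighted over its transcripts, was 5330 bases in NT and 5167 in IL-4. Ciita also overlaps Dexi on the opposite strand, and whether the reads were counted by strand was not given in the sources used here. Of the 31-base words of the Ciita transcripts 0.81% also occur in Dexi, and 1.51% occur in any other gene.

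The H2-M genes load peptide. H2-DMa (chr17:34119693-34139101, plus strand), the alpha chain of H2-M, had 102 expected counts in NT and 175 in IL-4. Its log2 ratio of 0.75 (0.39 to 1.12, exact test BH-adjusted p = 0.000154) was just under the threshold before rounding. H2-DMa was called higher when libraries were scaled by TMM or by the median of ratios (0.78 in each). It stood at 0.73 with the 100 most abundant genes left out of the totals and at 0.66 as FPKM plus 1, and was not called. H2-DMa overlaps 3094 bases of Brd2 on the opposite strand, and Brd2 had a log2 ratio of -0.02. Words of 31 bases from the H2-DMa transcript were found in 0 other genes. H2-DMb1 (chr17:34153191-34160229, plus strand) had 284 counts in NT and 398 in IL-4, a log2 ratio of 0.46 (0.24 to 0.68, exact test BH-adjusted p = 0.000236). H2-DMb2 (chr17:34143229-34151553, plus strand) rose from 16.5 counts in NT to 44.8 in IL-4, a log2 ratio of 1.39 (0.54 to 2.27, exact test BH-adjusted p = 0.00287). The call was lost when a biological coefficient of variation of 0.4 was assumed (edgeR exact test, unadjusted p = 0.151). Less the length trend the ratio was 0.61 (0.25 to 0.98) for H2-DMa and 0.27 (0.05 to 0.50) for H2-DMb1. For H2-DMb2 it was 1.19 (0.35 to 2.08).

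The beta chain genes are near copies, and their counts are not whole because reads that match both are divided by estimate. In GENCODE M21 transcripts the coding sequences, 783 bases in each without the stop codon, were identical at 751 positions and differed at 32, an identity of 95.9%. The longest identical run was 221 bases (coding bases 391 to 611), within which a read cannot be assigned to either gene. Of the 31-base words of the H2-DMb1 transcripts 37.6% also occur in H2-DMb2, and 37.1% of those of H2-DMb2 occur in H2-DMb1. With all other genes included, 45.7% of the H2-DMb2 words recur, in 1351 genes. The length listed with the counts was 1284 bases for H2-DMb1 and 786 for H2-DMb2. The latter is near the coding length alone, so these shares need not be those met in the counting. The stretch richest in differences, coding bases 201 to 320, holds 23 of the 32 and is shown because reads from it tell the genes apart. Capitals mark the bases that differ.
H2-DMb1: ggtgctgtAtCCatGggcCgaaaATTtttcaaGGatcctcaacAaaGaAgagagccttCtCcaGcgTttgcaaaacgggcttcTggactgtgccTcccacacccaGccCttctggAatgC
H2-DMb2: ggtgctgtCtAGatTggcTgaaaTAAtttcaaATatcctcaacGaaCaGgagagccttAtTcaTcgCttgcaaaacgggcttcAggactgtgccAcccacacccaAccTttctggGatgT

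Summed over both genes the counts were whole, at 301 in NT and 443 in IL-4, a log2 ratio of 0.53 (0.32 to 0.75). H2-DMb2 was given 5.49% of the sum in NT (exact 95% interval 3.32 to 8.89) and 10.1% in IL-4 (7.51 to 13.4). The shares differed in a two-sided Fisher's exact test of the rounded counts (p = 0.0307), which does not carry the error of the estimated division of reads. With the copies counted as 1 gene, a choice made after seeing the data, 0 of the class II genes passed the call rule. All H2-M chains together had 403 counts in NT and 618 in IL-4, a log2 ratio of 0.59 (0.41 to 0.77), without subtraction of the length trend.

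H2-O, the brake on H2-M that B cells and some dendritic cells carry, was barely detected. H2-Oa had 3 expected counts in NT and was not listed in IL-4, and since both are at or under the floor no fold is given. Of its 31-base words 24.9% are shared with another listed gene, BC051537, which overlaps it on the opposite strand. H2-Ob had 7 counts in NT and 2 in IL-4, a log2 ratio of -1.61 (-5.14 to 0.56, exact p = 0.170). The sum of both H2-O genes was 10 counts in NT and 2 in IL-4, a log2 ratio of -2.10 (-5.58 to -0.12). No difference was detectable for either gene alone at this depth.

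Cells other than macrophages can carry class II, and their markers are given for that reason. Of 10 B cell markers 9 were listed, with a summed abundance of 12.1 CPM in NT and 9.42 in IL-4. Ms4a1 had 16 counts in NT and 15 in IL-4, and Cd79a 43 and 31. Ighm was not listed. Of the B cell list 0 genes were called higher and 2 lower, where 4.07% and 6.28% of all genes were. The lower ones were Fcmr, with 15 counts in NT and 3 in IL-4, and Blk, with 10 and 1. Of 10 dendritic cell markers 9 were listed, and their sum was 189 CPM in NT and 351 in IL-4. Most of this was Itgax, with 2003 counts in NT and 3527 in IL-4, which macrophages also express. Batf3 rose from 9 counts to 345. Of the rest Ccr7 had 41 counts in NT and 39 in IL-4, Xcr1 15.8 and 14.5, Zbtb46 9 and 12, Clec9a 4 and 0, and Flt3 1 in each library. Cd209a and Kmo had at most 4 counts in either library, and Siglech was not listed. The part of these cells in the class II counts was not tested.

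**Figure D3:**
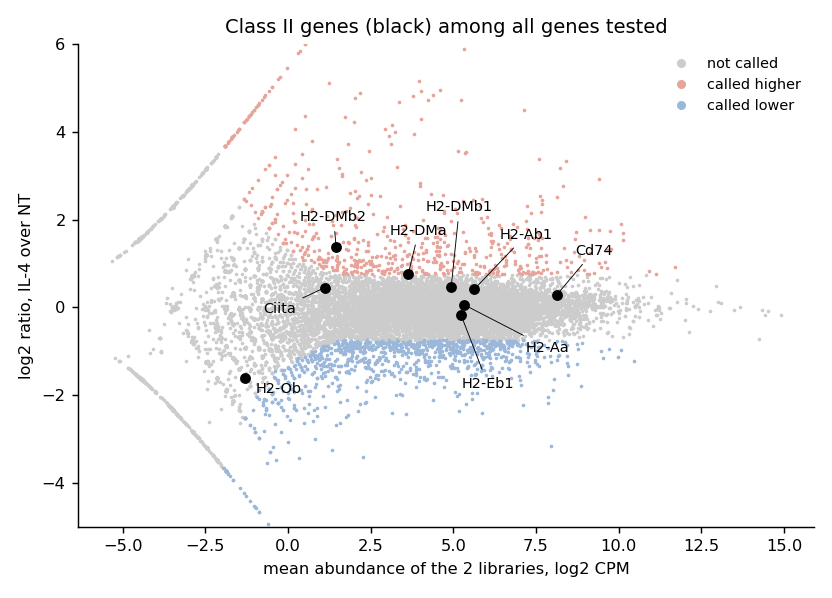
Log2 ratio of IL-4 over NT against mean abundance in log2 CPM for the genes tested, with called genes in red (higher) and blue (lower), class II genes in black and the view limited to ratios from -5 to 6. H2-DMb2 lies among the genes called higher at 1.39, while H2-Aa at 0.06, H2-Eb1 at -0.19 and Cd74 at 0.29 lie within the bulk of genes at their abundance, and H2-Oa is not drawn.

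Of 14 factors that act on class II promoters or on Ciita 2 were called higher and 0 lower, where 4.07% and 6.28% of all genes were, with a median log2 ratio of 0.03. Those called were Irf4, a factor of B cells and dendritic cells that IL-4 induces in macrophages, with 30 counts in NT and 820 in IL-4 (log2 ratio 4.72), and Irf1, which acts on Ciita downstream of interferon, with 526 and 1353 (1.33). The RFX complex, which binds the X box, was not called. Rfx5 had 76 counts in NT and 65 in IL-4 (-0.25), Rfxank 418 and 399, and Rfxap 149 and 158. The NF-Y subunits, which bind the Y box, were not called either. Nfya had 1468 counts in NT and 1714 in IL-4 (0.20), Nfyb 105 and 118 (0.14), and Nfyc 398 and 494 (0.28). Creb1, a factor of the X box, had a log2 ratio of -0.08 and Zxdc, which acts with Ciita, of -0.39. Spi1, the myeloid factor PU.1, had 3705 and 3783 (0.00), Irf8 2180 and 1691 (-0.39), and Stat6 2951 and 2420 (-0.31).

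Interferon-gamma itself was not listed in either library. The other 7 genes of its receptor pathway had a median of 0.45. Of these 3 were called higher and 0 lower, where 4.07% and 6.28% of all genes were. Besides Irf1 these were Jak2, a receptor kinase, with 568 counts in NT and 1509 in IL-4 (1.38), and Socs1, which inhibits JAK kinases and is also induced by IL-4, with 11 and 355 (4.92). Ifngr1 had a log2 ratio of 0.45, Ifngr2 of 0.35 and Jak1 of -0.07, and these were not called.

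A list of 12 genes for proteases, protease inhibitors and reductase that prepare class II and its peptides in endosomes had a median of 0.22. Of these 3 were called higher and 0 lower, where 4.07% and 6.28% of all genes were. Ctsl, a protease that can remove the invariant chain, had 25528 counts in NT and 48849 in IL-4 (0.91). Ifi30, the thiol reductase GILT, had 4498 and 7760 (0.76), and Cst7, an inhibitor of cathepsins, had 2 and 14 (2.51, interval 0.66 to 5.96). Lgmn, an asparaginyl protease, had 14918 and 25467 (0.74), just under the threshold. Ctss, the main protease for the last cut of the invariant chain in many antigen-presenting cells, had 87001 counts in NT and 96242 in IL-4 (0.12). Ctsd and Ctsb, the aspartyl and cysteine proteases of lysosomes, had log2 ratios of -0.18 and -0.06, and the cathepsin inhibitor Cst3 of 0.31. Ctsf, a cathepsin that cuts the invariant chain in macrophages, had 55 counts in NT and 35 in IL-4 (-0.67). Sppl2a, which clears the membrane stub that remains of Cd74, had 1396 counts in NT and 921 in IL-4 (-0.63), below 0 and short of the threshold. With the length trend subtracted 2 genes of this list were called higher and 1 lower, where 4.05% and 4.87% of all genes were. Ifi30 (0.57) then lost its call, and Ctsf (-0.80) was called lower.

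Of 4 genes that set how long class II stays at the surface 0 were called higher and 0 lower. Among all genes 4.07% were called higher and 6.28% lower. Marchf1, the ubiquitin ligase for class II, had 145 counts in NT and 182 in IL-4 (0.30), Marchf8 had 814 and 778 (-0.09), and Cd83, which counters Marchf1, had 481 and 550 (0.17). Cd74 is also a receptor for MIF, and of 6 genes of that pathway Cd44 alone was called, with 2753 counts in NT and 5698 in IL-4 (1.02). Mif had 622 and 716 (0.18), and Cxcr4 2171 and 1506 (-0.56).

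**Figure D4:**
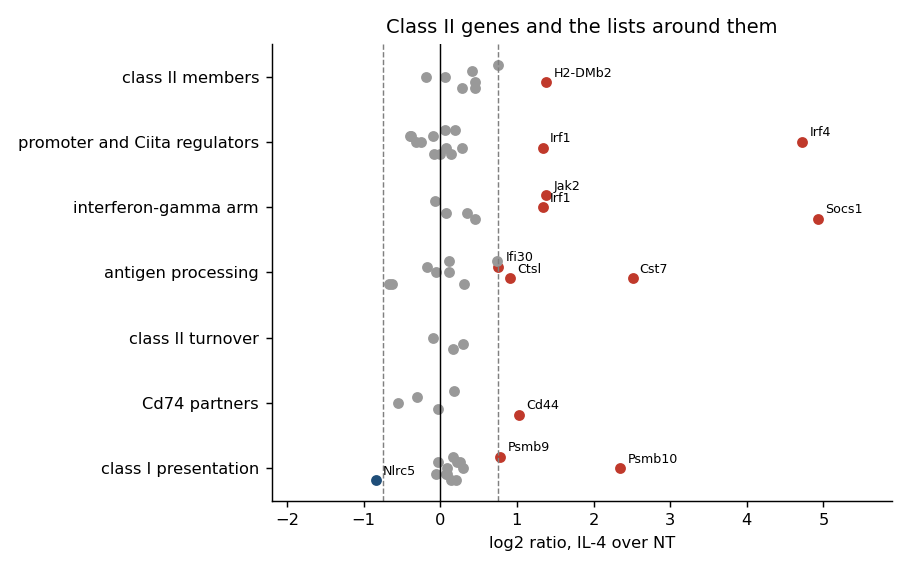
Log2 ratio of IL-4 over NT for genes with at least 10 counts in lists related to class II presentation, 1 point per gene and 1 row per list, with genes called higher in red, the gene called lower in blue, the threshold of 0.75 dashed and Irf1 present in 2 lists. Ctss at 0.12 and Spi1 at 0.00 lie near 0, while Irf4 at 4.72 and Socs1 at 4.92 stand far to the right.

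Class I presentation served as the nearest comparison. Of its 14 genes 2 were called higher and 1 lower, where 4.07% and 6.28% of all genes were, with a median of 0.16. With the length trend subtracted 1 was called higher and 0 lower, where 4.05% and 4.87% of all genes were. Psmb9 (0.59) and Nlrc5 (-0.46) were those that lost the call. The transactivators had ratios of different sign, 0.45 for Ciita, which was not called, and -0.84 for Nlrc5, the class I transactivator, which fell from 171 counts in NT to 97 in IL-4. Whether these ratios differ from each other was not tested. The immunoproteasome subunit Psmb10 rose from 746 to 3879 counts (2.35) and Psmb9 from 140 to 246 (0.78). The class I heavy chains and B2m together had 115752 counts in NT and 124787 in IL-4, a log2 ratio of 0.08.

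Of the 10 genes 8 lie within 224 kb of chromosome 17, at chr17:34092379-34316674. Among the 5 other genes tested there, 1 was called higher (Psmb9) and 0 lower, where 4.07% and 6.28% of all genes were. Less the length trend Psmb9 stood at 0.59 and was not called. The median of the 5 was 0.14. The rest were Brd2 at -0.02, Tap1 at 0.14, Psmb8 at 0.22 and Tap2 at 0.09. Along the region the H2-M genes at one end had ratios between 0.46 and 1.39, and H2-Aa and H2-Eb1 at the other end 0.06 and -0.19, with H2-Ab1 next to them at 0.41.

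**Figure D5:**
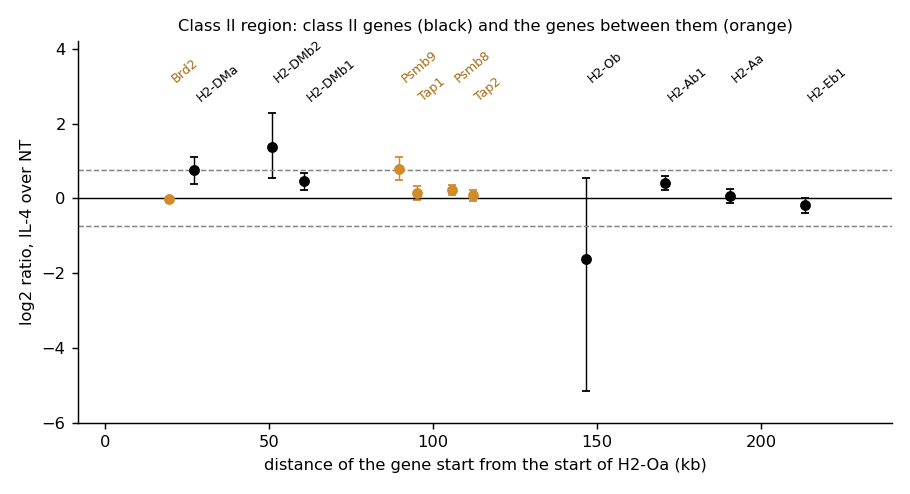
Log2 ratio of IL-4 over NT by distance in kb of each gene's lower coordinate from that of H2-Oa, with 95% counting intervals, class II genes in black, the genes between them in orange and the threshold of 0.75 dashed. Without subtraction of the length trend, H2-DMb2 at 1.39 and Psmb9 at 0.78 are past the threshold. H2-Oa, at or under 3 counts in both libraries, is not drawn.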

How the data were processed

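RNA was sequenced on an Illumina HiSeq, and reads were mapped to GRCm38/mm10 with Bowtie and counted with RSEM by the authors (versions not stated). The deposited tables give an expected count per gene, not scaled for depth, in which reads shared by copies are divided by estimate. The authors also deposited FPKM, scaled for length and depth. Absent genes were set to 0. NCBI gene numbers were matched to symbols for 15587 of 15623 genes (36 had no match).

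Each library's title gave its group. Counts were rounded for the exact binomial test of the IL-4 share of a gene's reads, run on 15593 genes with BH adjustment, and 30 genes at 0 after rounding were left out. The thresholds are those of the study. Ratio intervals are Clopper-Pearson. The length trend at a gene is the median over the 401 others closest to it in length that had at least 200 reads. Only counting error enters the intervals here, since no replicate exists, so the precision for the conditions is unknown. Low genes such as Ciita have wide intervals. The members, gene lists and tests were chosen with earlier results of these data known. Named by rule were the members, Arg1, the called genes of the lists and region, and regulators and processing genes with at least 50 counts. Other genes are named as list members, chosen after their values were seen. The calling step was tested on simulated data. Alternatives used edgeR 4.0.16 for TMM scaling and for an exact test with assumed variation, and size factors from DESeq2 1.42.0. Others left the top 100 genes out of the totals, took FPKM plus 0.1 or 1, added 1 count, set other thresholds, required 10 counts or subtracted the length trend. The work was done in R 4.3.3 and Python 3.11.15 (pandas 2.3.3, scipy 1.17.1). Some genes of the lists, counted in the totals, are not reported here by name.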

Additional observations from a re-analysis of the deposited data

How the results depend on the processing

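The number of class II genes called higher was 1 in the report, 2 with TMM scaling, 2 with median-of-ratios scaling and 2 with a fold above 1.5 at a BH-adjusted value of 0.05, since H2-DMa joined H2-DMb2. It was 0 when the edgeR test assumed variation of 0.4, and 0 with H2-DMb1 and H2-DMb2 counted as 1 gene, the alternative chosen after seeing the data. The number called lower was 0 under every alternative run. H2-Aa turned to -0.13 with the length trend subtracted. Of the comparisons of single class II genes with their alternatives, 123 kept direction and call, 3 gained a call, 1 lost it and 1 changed sign. Alternatives that changed only the test, the thresholds or the count required could not change the direction. The tally therefore does not measure how stable the ratios are. The median log2 ratio of the 10 genes ranged from 0.16 to 0.43, the sum of the classical chains and Cd74 from 0.06 to 0.27, and that of H2-DMb1 and H2-DMb2 from 0.35 to 0.57. The lowest value of each came with the length trend subtracted. No paired analysis was possible because NT and IL-4 hold 1 library each, and for the same reason no library could be left out. Depth limits Ciita, H2-Oa and H2-Ob most.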

Other observations

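T cells that read class II also need signals from costimulatory and checkpoint ligands, of which 6 of the 8 looked for were listed. In this list 2 genes were called higher and 1 lower, where 4.07% and 6.28% of all genes were. The median log2 ratio of the list was 0.57. Pdcd1lg2, which encodes the inhibitory ligand PD-L2, rose from 14 expected counts in NT to 879 in IL-4 (log2 ratio 5.89). Cd40, the receptor for CD40 ligand on helper T cells, rose from 14 to 82 (2.48). Icosl, the ligand of ICOS, fell from 22 counts to 8 (-1.43). Cd274, which encodes PD-L1, had a log2 ratio of 0.73, Cd86 of 0.41 and Cd80 of 0.16, and these were not called. The calls compare the libraries, with 1 per group.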
